A study of Mus musculus with 14 samples.

Results

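The tumour necrosis factor (TNF) superfamily is made up of cytokine ligands, most of them trimers that are made at the cell membrane and can be shed, and of receptors with cysteine-rich domains that face outside the cell. Receptors with a death domain, such as the TNF receptor encoded by Tnfrsf1a, can lead to NF-kappa-B signalling or to cell death, and receptors without one recruit TRAF proteins. In brain tissue microglia are a known source of TNF, Tnfrsf1a is used by most cell types, and Tnfrsf1b is best known from microglia and vascular cells. The ligand BAFF, the product of Tnfsf13b, keeps B cells alive and is a drug target in systemic lupus.

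The account below covers 9 genes of this superfamily in the mouse hippocampus, chosen as the rows of the gene count table whose Ensembl identifiers carry their symbols in the GENCODE M21 annotation. They are 9 of the 55536 Ensembl genes in the table, and all 9 were among the 38070 genes with at least 10 counts over all libraries, which were tested. The 5 ligands were Tnf, Tnfsf10 (TRAIL), Tnfsf12 (TWEAK), Tnfsf13 (APRIL) and Tnfsf13b (BAFF). The 4 receptors were Tnfrsf1a, Tnfrsf1b, Tnfrsf12a (Fn14, the receptor for TWEAK) and Tnfrsf11b (osteoprotegerin, a secreted decoy receptor that binds RANKL and TRAIL).

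Bulk RNA sequencing was done on hippocampi of 14 mice aged 10 months, with 1 library per mouse, to ask how a kinase-dead form of IRAK4, a kinase used by Toll-like and interleukin-1 receptors, bears on a lupus-prone strain. The MRL group (4 mice) carried the lpr allele of Fas, a death receptor of this same superfamily, and wild-type Irak4. The MRL-IRAK4-KD group (4 mice) carried lpr together with kinase-dead Irak4, the IRAK4-KD group (3 mice) carried kinase-dead Irak4 alone, and the C57BL/6 group (3 mice) carried neither. The mice of all groups had the C57BL/6 background, so the name MRL stands for the lpr allele rather than for the whole MRL genome, and kinase activity was lost in every cell of the body. In whole tissue, fewer cells of a type and less RNA per cell cannot be told apart.

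Libraries held between 279941472 and 572398312 counts. Markers of hippocampal neurons were present in every library, with a summed level of 2136 to 3092 CPM (counts scaled to the library total, after TMM correction). Mean Irak4 RNA lay between 2.01 ± 0.33 CPM (SD, MRL-IRAK4-KD) and 2.39 ± 0.26 CPM (MRL) in the 4 groups, and since the allele removes kinase activity and not the RNA, these levels do not check the labels. The intact Fas transcript Fas-201 had 0 counts in all 8 libraries of the lpr groups and 345 to 584 counts in C57BL/6. The library labelled IRAK4-KD replicate 3 lacked it too, with 0 counts against 360 and 386 in the other IRAK4-KD libraries, and that library had 514 counts of the aberrant transcript Fas-204, a level found otherwise only in the lpr groups. Its Fas transcripts therefore go against its label, and its striatal marker sum of 315.5 CPM was the highest of all libraries (next 122.8 CPM). The library MRL-IRAK4-KD replicate 4 stood apart on the first principal component (152.2, against -28.4 to 8.82 in the others). Its choroid plexus markers summed to 7744 CPM (next 1825 CPM), and it had 1.40 counts per read against 1.80 to 2.08 elsewhere. It also had the lowest input RNA concentration (27.4, unit not given, against 39.6 to 43.7). Its library concentration by qPCR was 13.48 nM, against 23.49 to 27.55 nM. Genes with counts numbered 31355 in it and 32697 to 34913 in the others. MRL replicate 3 held pituitary markers at a sum of 87.22 CPM (next 6.369 CPM). Where leaving out one of the first 2 libraries, or MRL replicate 4, moved a value named for the 9 genes by over 1.5 times, the other value is given beside it.

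The promoter of Tnfrsf1b is shown because this gene separated the MRL mice from all others, and that of Tnfsf10 because it had the largest difference between MRL and MRL-IRAK4-KD. Both are from RefSeq on GRCm38.p6, the assembly called mm10, and run 5′ to 3′ up to the base before the annotated start. Capitals mark a match to the core of the interferon-stimulated response element (ISRE), GAAA followed after any 2 bases by GAAA, on either strand.
Tnfrsf1b promoter, chr4:145246871-145247120, minus strand: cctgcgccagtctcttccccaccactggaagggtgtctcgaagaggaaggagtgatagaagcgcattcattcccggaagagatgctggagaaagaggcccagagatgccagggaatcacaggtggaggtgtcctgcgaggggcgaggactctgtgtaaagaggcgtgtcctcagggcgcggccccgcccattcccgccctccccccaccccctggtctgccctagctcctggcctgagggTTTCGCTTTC
Tnfsf10 promoter, chr3:27316827-27317027, plus strand: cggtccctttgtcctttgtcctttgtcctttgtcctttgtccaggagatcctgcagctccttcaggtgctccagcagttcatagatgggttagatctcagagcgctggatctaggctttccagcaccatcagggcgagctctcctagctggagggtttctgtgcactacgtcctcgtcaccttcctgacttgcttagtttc
A second match lies in a promoter of Tnfsf13b, starting 16 bases before 1 of its annotated starts.
Tnfsf13b site, chr8:10006607-10006636, plus strand: tacaaaaactGAAAGTGAAAtgcggaaggc

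In windows of 300 bases, reaching from 250 bases before to 50 after each start, the RefSeq table held 8 windows for 7 of the 9 genes (Tnfsf12 and Tnfrsf11b are named only). The ISRE core was found in those of 2 genes, Tnfrsf1b and Tnfsf13b, and in 3.44% of all 32851 windows. The STAT core TTCNNNGAA was found in those of Tnfrsf1a and Tnfrsf1b, and in 8.30% of all windows. The NF-kappa-B consensus was found in none of the 8 windows and in 8.46% of all. Each motif was read on both strands and counted by itself, whether or not it overlapped another. A match describes these letters only.

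Per unit of transcript length the 9 genes lay far apart. In TPM, which scales counts by transcript length and library total, the mean over all 14 mice was 9.79 ± 1.48 (SD) for Tnfsf12 and 9.14 ± 1.22 for Tnfrsf1a, followed by 4.22 ± 1.47 for Tnfrsf12a and 2.08 ± 0.40 for Tnfrsf1b. The levels of Tnfsf10 (1.07 ± 1.26 TPM), Tnfsf13 (0.930 ± 0.338 TPM), Tnfsf13b (0.927 ± 0.183 TPM) and Tnfrsf11b (0.736 ± 0.267 TPM) differed from each other by less than the spread over mice. Tnf, the cytokine that names the family, was lowest at 0.0818 ± 0.0548 TPM. The ligand TWEAK and its receptor Fn14 were thus among the 3 highest of the 9 genes.

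**Figure D1:**
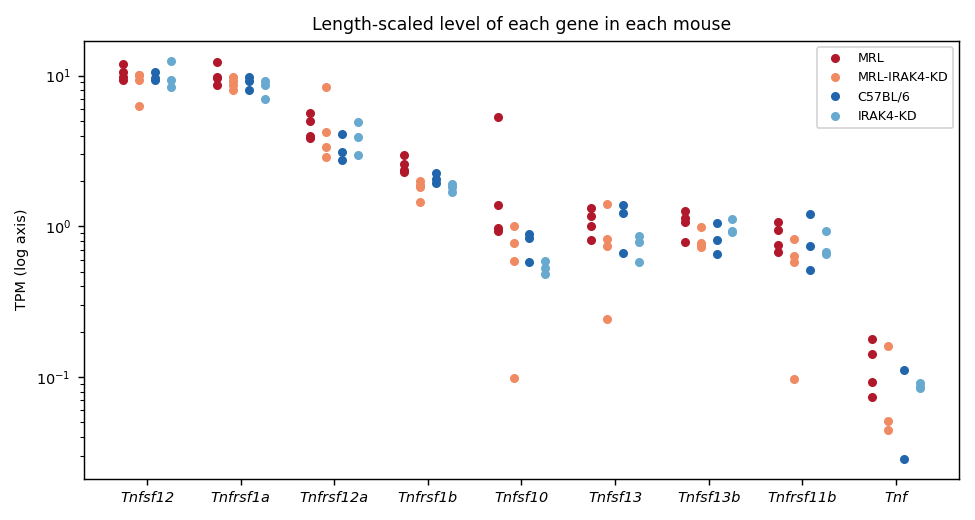
TPM of each gene (log axis) in each of the 14 mice, coloured by group; genes are ordered by their mean over all mice. Tnfsf12 and Tnfrsf1a lie highest with means of 9.79 and 9.14 TPM, Tnf lies lowest at 0.0818 TPM, and 2 libraries with 0 counts of Tnf cannot be drawn on a log axis.

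Set against each other, MRL and MRL-IRAK4-KD ask what the kinase-dead allele changed in mice that all carried lpr. With edgeR's quasi-likelihood test and Benjamini-Hochberg adjustment over all genes, 0 of the 9 genes were called at an adjusted p below 0.05, where 0.0972% of all genes were called. At an unadjusted edgeR p below 0.05 there were 3 of 9, Tnfrsf1b, Tnfsf10 and Tnfsf13b, all higher in MRL, where 11.4% of all genes passed and 5.14% passed as higher. Among the 18114 genes with a mean of at least 0.5 CPM, which 8 of the 9 reached, 6.79% passed as higher. Only Tnfrsf1b separated the groups, with every MRL mouse above every MRL-IRAK4-KD mouse, as did 3.13% of all genes and 4.31% of those with at least 0.5 CPM. The estimate was above 0 for 8 of the 9 genes, with a median log2 difference of 0.45 against 0.00 over all genes.

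**Figure D2:**
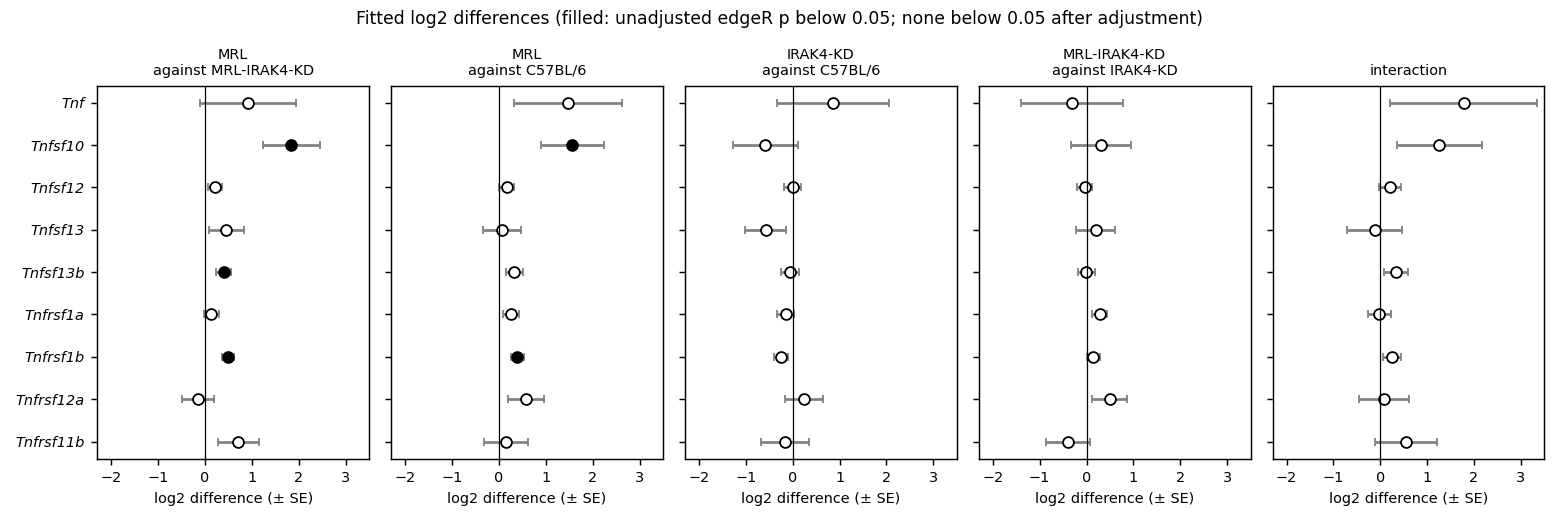
Fitted log2 differences (points) with their SE (bars) for the 9 genes in the 4 comparisons of groups and, at right, in the interaction, the difference of MRL minus MRL-IRAK4-KD less that of C57BL/6 minus IRAK4-KD. Filled points have an unadjusted edgeR p below 0.05, 3 in MRL against MRL-IRAK4-KD and 2 in MRL against C57BL/6, and no point has an adjusted p below 0.05.

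Tnfrsf1b (ENSMUSG00000028599.10) encodes TNF receptor 2, which has no death domain and responds best to membrane-bound TNF. It lies on the minus strand of chromosome 4, from 145213463 to 145246870, and all of its counts came from the coding transcript Tnfrsf1b-201. The 4 MRL mice had 4.95, 4.62, 4.22 and 5.76 CPM. The 4 MRL-IRAK4-KD mice had 3.65, 3.66, 3.35 and 3.22 CPM. The 3 C57BL/6 mice had 3.37, 3.73 and 4.06 CPM. Every MRL mouse was thus above each of the 10 other mice, a pattern that 0.728% of all genes and 1.31% of those with at least 0.5 CPM showed. In IRAK4-KD the levels were 2.94 and 3.39 CPM, and 3.10 CPM in the library labelled replicate 3. The difference between MRL and MRL-IRAK4-KD was 0.49 ± 0.13 (SE) on the log2 scale, a 1.41-fold higher level in MRL. Its edgeR p was 0.00191 and its adjusted p 0.335, and DESeq2, the tool the study names, gave a log2 difference of 0.50 with an adjusted p of 0.00639, where it called 1.34% of genes. With 1 mouse left out at a time the edgeR estimate stayed between 0.42 and 0.57, and the 2-sided exact permutation p was 0.0286, the smallest that 4 against 4 mice allow.

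Tnfsf10 (ENSMUSG00000039304.11, chromosome 3, plus strand, 27317028 to 27342427) encodes TRAIL, a ligand of death receptors and a known interferon target. The 4 MRL mice had 3.41, 2.40, 2.24 and 13.2 CPM. The 4 MRL-IRAK4-KD mice had 1.5, 2.40, 1.77 and 0.287 CPM. The highest value in MRL and the lowest in MRL-IRAK4-KD each came from 1 library, replicate 4 of its group, and the groups overlapped between 2.24 and 2.40 CPM. The log2 difference of 1.84 ± 0.61 had an edgeR p of 0.00932, an adjusted p of 0.415 and an exact permutation p of 0.0857. Without MRL replicate 4 it was 0.86 with an edgeR p of 0.0949. Without MRL-IRAK4-KD replicate 4 it was 1.501 with an edgeR p of 0.0232.

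Tnfsf13b (ENSMUSG00000031497.9, chromosome 8, plus strand, 10006467 to 10039072) encodes BAFF. Its levels in MRL were 1.79, 1.52, 1.74 and 1.61 CPM. In MRL-IRAK4-KD they were 1.33, 1.07, 1.53 and 1.13 CPM. The ranges met only at MRL-IRAK4-KD replicate 3. Of the 10 mice outside MRL, 9 lay below the lowest MRL mouse, as was also so for Tnfsf10. The share of all genes with this pattern was not computed. The log2 difference was 0.40 ± 0.17 (edgeR p = 0.0324, adjusted p = 0.437), with an exact permutation p of 0.0571. Most of its counts, 73.8%, came from the coding transcript Tnfsf13b-203. The shorter coding transcript Tnfsf13b-201, which made up 3.23%, had 66, 82, 40 and 30 counts in the MRL mice. Outside MRL it had counts in only 2 of 10 libraries, 18 in MRL-IRAK4-KD replicate 1 and 38 in IRAK4-KD replicate 1. These transcript counts were assigned by the authors' software among overlapping isoforms and were not tested.

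Of the other ligands, Tnf itself (ENSMUSG00000024401.14, chromosome 17, minus strand, 35199381 to 35202007) was close to the limit of detection, with 68, 35, 35 and 56 counts in the MRL mice and 18, 45, 0 and 15 in MRL-IRAK4-KD. A library with 0 reads of a transcript can hold up to 3 reads' worth of it by counting error alone. Deposited counts came to 1.40 to 2.08 per read, so in counts this limit would be higher. Intervals of this kind cover counting error only. The log2 difference of Tnf, 0.92 ± 1.02, was smaller than its error. Tnfsf12 (TWEAK) gave 0.21 ± 0.15, with mean levels (± SD over 4 mice) of 7.24 ± 0.97 CPM and 6.25 ± 0.72 CPM. Tnfsf13 (APRIL, a survival factor of plasma cells) gave 0.45 ± 0.38, from 0.789 ± 0.167 CPM in MRL and 0.576 ± 0.311 in MRL-IRAK4-KD. Without MRL-IRAK4-KD replicate 4, which had 0.206 CPM of Tnfsf13, these became 0.18 for Tnfsf13 and 0.14 for Tnfsf12. The edgeR p was 0.385 for Tnf, 0.183 for Tnfsf12 and 0.254 for Tnfsf13.

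Counts of Tnfsf12 and Tnfsf13 are uncertain for another reason. The genes are neighbours on the minus strand of chromosome 11, from 69686250 to 69695849 and from 69682846 to 69685784, and the annotation holds a read-through gene, Tnfsfm13, across both. Of the stretches of 100 bases in the main transcript of Tnfsf12, 47.1% also occur in Tnfsfm13, and for the transcript Tnfsf13-202 the share was 46.7%. Tnfsfm13 was at 4.89 ± 0.40 CPM in MRL and 4.22 ± 0.65 in MRL-IRAK4-KD, above Tnfsf13 itself at 0.789 CPM in MRL. With the 3 genes summed, the log2 difference between MRL and MRL-IRAK4-KD was 0.226 ± 0.132.

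Among the receptors, Tnfrsf1a (ENSMUSG00000030341.17, chromosome 6, plus strand, 125349362 to 125362484), the death-domain receptor for TNF, had 10.4, 9.48, 9.99 and 13.3 CPM in MRL and 10.1, 8.22, 8.96 and 12.2 CPM in MRL-IRAK4-KD. The groups overlapped over most of their range, and replicate 4 was the highest mouse in each. The log2 difference was 0.13 ± 0.16 (adjusted p = 0.742 by edgeR), 0.26 without MRL-IRAK4-KD replicate 4 and 0.03 without MRL replicate 4. Tnfrsf12a (Fn14; ENSMUSG00000023905.15, chromosome 17, minus strand, 23675445 to 23677468) had 1.86, 2.64, 2.26 and 1.83 CPM in MRL and 1.62, 1.95, 1.29 and 4.73 CPM in MRL-IRAK4-KD. Its difference was -0.16 ± 0.35 and turned to 0.42 ± 0.22 without MRL-IRAK4-KD replicate 4. That is the library with high choroid plexus markers and the lowest input RNA concentration. Without MRL replicate 4 the difference was -0.06. The part of choroid plexus tissue or of low input in the value was not tested.

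Tnfrsf11b (ENSMUSG00000063727.3, chromosome 15, minus strand, 54250619 to 54278484), the decoy receptor osteoprotegerin, had 0.952, 1.07, 1.30 and 1.52 CPM in MRL. In MRL-IRAK4-KD it had 0.904, 0.783, 1.11 and 0.158 CPM. The lowest of these was again replicate 4, at 49 counts. The log2 difference was 0.71 ± 0.44 (adjusted p = 0.497 by edgeR), and 0.38 without that library.

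**Figure D3:**
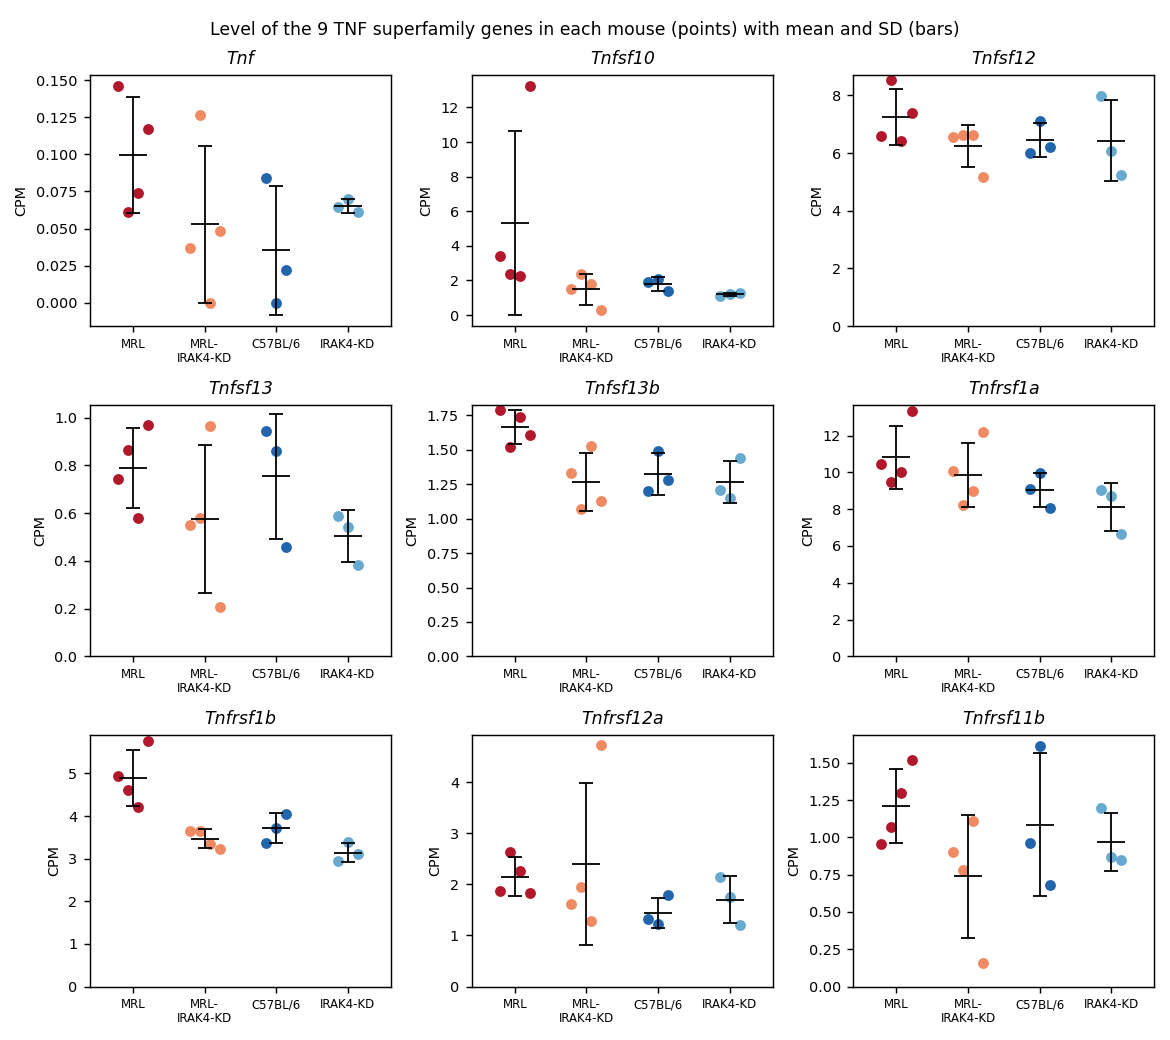
CPM of each of the 9 genes in each mouse (points) by group, with the group mean and SD as bars; each panel has its own axis. The 4 MRL points of Tnfrsf1b, from 4.22 to 5.76 CPM, lie above those of all other mice, the highest Tnfsf10 point is MRL replicate 4 at 13.2 CPM, and the highest Tnfrsf12a point is MRL-IRAK4-KD replicate 4 at 4.73 CPM.

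MRL against C57BL/6 compares mice with and without the lpr allele where IRAK4 is intact, and also lines from different sources. By edgeR, 0 of the 9 genes had an adjusted p below 0.05, as had 0.0% of all genes, and DESeq2 called none of the 9 either. At an unadjusted edgeR p below 0.05 there were 2 of 9, Tnfrsf1b and Tnfsf10, both higher in MRL, where 5.55% of all genes passed and 3.16% passed as higher, or 4.53% of those with at least 0.5 CPM. All 9 estimates were above 0, with a median log2 difference of 0.33 against 0.00 over all genes. For 4 of the 9, Tnfrsf1b, Tnfsf10, Tnfsf13b and Tnfrsf12a, every MRL mouse was above every C57BL/6 mouse, as for 4.47% of all genes and 7.25% of those with at least 0.5 CPM. The 4 MRL libraries used here are those of the comparison with MRL-IRAK4-KD, so the 2 comparisons are not independent.

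Tnfrsf1b differed by 0.39 ± 0.14 on the log2 scale between MRL and C57BL/6 (adjusted p = 0.824 by edgeR), at means of 4.89 and 3.72 CPM. Its 2-sided exact permutation p was 0.0571, which is the smallest that 4 against 3 mice allow and cannot pass 0.05. Tnfsf10 was at 1.92, 2.098 and 1.37 CPM in C57BL/6 and differed by 1.57 ± 0.67 (adjusted p = 0.895 by edgeR). That value rested on MRL replicate 4, since without this mouse it was 0.60 with an edgeR p of 0.268. The C57BL/6 mice had 1.20, 1.49 and 1.28 CPM of Tnfsf13b and 1.33, 1.23 and 1.78 CPM of Tnfrsf12a. The differences were 0.33 ± 0.18 (adjusted p = 0.925 by edgeR) for Tnfsf13b and 0.57 ± 0.38 (adjusted p = 0.953 by edgeR) for Tnfrsf12a. The latter became 0.58 with an edgeR p of 0.0196 without MRL-IRAK4-KD replicate 4, a library that enters this comparison only through the shared estimate of the spread. Tnf counts were 31, 0 and 9 in C57BL/6, and Tnfrsf1a, Tnfsf12, Tnfsf13 and Tnfrsf11b had log2 differences of 0.07 to 0.26 with edgeR p values from 0.149 to 0.872. Without MRL replicate 4 the values of Tnfrsf1a, Tnfsf13 and Tnfrsf11b were 0.16, -0.03 and 0.04.

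IRAK4-KD against C57BL/6 compares mice with and without the kinase-dead allele in the absence of lpr, with the reservation that 1 of the 3 libraries labelled IRAK4-KD carried the Fas transcripts of lpr mice. By edgeR, 0 of the 9 genes had an adjusted p below 0.05 (0.147% of all genes did) and 0 had an unadjusted p below 0.05 (3.8% did). The estimate was below 0 for 7 of the 9, with a median of -0.15 against -0.01 over all genes. Tnfsf10 was the 1 gene without overlap, at 1.10, 1.23 and 1.26 CPM in IRAK4-KD, all under the lowest C57BL/6 mouse at 1.37 CPM, and 5.52% of all genes (6.77% of those with at least 0.5 CPM) showed this pattern. Its log2 difference was -0.58 ± 0.69 (adjusted p = 1.0 by edgeR), and the exact permutation p was 0.1, the smallest that 3 against 3 mice allow. Without the library labelled IRAK4-KD replicate 3 it was -0.62. Tnfrsf1b differed by -0.24 ± 0.15, and by -0.23 without that library. Of the other receptors, Tnfrsf1a gave -0.15 ± 0.18, Tnfrsf12a 0.24 ± 0.40 and Tnfrsf11b -0.16 ± 0.51, each within its error. Without the same library these were -0.03, 0.43 and -0.08. The ligands other than Tnfsf10 gave 0.86 ± 1.19 (Tnf), -0.00 ± 0.17 (Tnfsf12), -0.58 ± 0.44 (Tnfsf13) and -0.06 ± 0.19 (Tnfsf13b), and 0.91, 0.12, -0.41 and -0.17 without it.

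MRL-IRAK4-KD against IRAK4-KD compares mice with and without lpr where all lack IRAK4 kinase activity. By edgeR, 0 of the 9 genes had an adjusted p below 0.05 (0.0735% of all genes did) and 0 had an unadjusted p below 0.05 (8.63% did). The median log2 difference was 0.14, and none of the 9 separated the groups, where 4.31% of all genes lay above and 4.43% below without overlap. The Tnfrsf1b estimate was 0.14 ± 0.14, and 0.13 without the library labelled IRAK4-KD replicate 3. For Tnfrsf1a it was 0.28 ± 0.17, and 0.15 without that library or 0.16 without MRL-IRAK4-KD replicate 4. For Tnfrsf12a it was 0.49 ± 0.38, and 0.30 or -0.07 in the same order. For Tnfsf10 it was 0.31 ± 0.64, and 0.35 or 0.66. The interaction asks whether the difference tied to the kinase-dead allele was larger in lpr mice, and by edgeR 0 of 9 genes passed at an adjusted p below 0.05 (0.00263% of all genes did) and 0 at an unadjusted p below 0.05 (4.17% did). For Tnfrsf1b it was 0.25 ± 0.20 (adjusted p = 0.914 by edgeR), and for Tnfsf10 1.25 ± 0.91 (adjusted p = 0.914). The Tnfsf10 value was 0.28 without MRL replicate 4. A larger difference in lpr mice was therefore not shown for either gene.

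Ordered by mean CPM, MRL came first for 8 of the 9 genes, the exception being Tnfrsf12a. The share of all genes with MRL first was not computed, so this count is not read as a trait of the 9. The step from MRL to the next group exceeded the larger SD of the pair for Tnfrsf1b (1.17 CPM, SD 0.654) and Tnfsf13b (0.340 CPM, SD 0.151), in both cases over C57BL/6. For the other 7 genes the first step in the order was within the spread. Below MRL, the order of the other 3 groups for Tnfsf13b spanned 1.265 to 1.325 CPM, a range smaller than the SD of any of them.

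The other genes of the pathway were read from lists of the remaining ligands, the remaining receptors, the adaptors and transducers of TNF receptors, and genes known to respond to TNF. Of 13 other ligands 12 were tested (Tnfsf4 had too few counts), with a median log2 difference of -0.11 in MRL against MRL-IRAK4-KD. At an unadjusted edgeR p below 0.05, 1 was higher and 0 lower, where 5.14% of all genes passed as higher and 6.23% as lower. The ligand that passed was Tnfsf8 (CD30 ligand), at a mean of 0.307 ± 0.230 CPM (SD) over the MRL mice and 0.0824 ± 0.0585 in MRL-IRAK4-KD. Tnfsf8 had a log2 difference of 1.88 ± 0.79 and an adjusted edgeR p of 0.437. It was 1.25 without MRL replicate 4. Of the other named ligands, which did not pass, the lymphotoxin gene Lta had -0.62 ± 0.43 (-0.24 without MRL-IRAK4-KD replicate 4) and Tnfsf9, a ligand of T cell co-stimulation, 0.29 ± 0.26 (0.16 without MRL replicate 4). Cd40lg and Tnfsf15 were at 0 CPM in 12 of the 14 libraries each and are not read further.

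Of the 24 other receptors, all tested, 3 were higher and 0 lower at an unadjusted edgeR p below 0.05, where 5.14% of all genes passed as higher and 6.23% as lower, and 0 had an adjusted p below 0.05. The median log2 difference was 0.14. They were Cd40, the co-stimulatory receptor of antigen-presenting cells (0.83 ± 0.33), Tnfrsf11a, which encodes the RANKL receptor RANK (0.65 ± 0.27), and Fas (0.53 ± 0.24). Tnfrsf11a was at 2.67 to 4.40 CPM in MRL and 1.21 to 3.495 CPM in MRL-IRAK4-KD, so the groups overlapped. The Fas value was 0.27 without MRL replicate 4. Tnfrsf19 (TROY) was abundant here, at 60.7 to 69.0 CPM in MRL and 22.0 to 58.7 CPM in MRL-IRAK4-KD. It did not overlap between the groups, as for 3.13% of all genes and 4.31% of those with at least 0.5 CPM. Its log2 difference was 0.46 ± 0.22 (adjusted p = 0.439 by edgeR), or 0.24 without MRL-IRAK4-KD replicate 4. Tnfrsf26 was scarce and had 1.15 ± 0.61.

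Of the 30 adaptors and transducers, 5 were higher and 1 lower in MRL than in MRL-IRAK4-KD at an unadjusted edgeR p below 0.05 (5.14% and 6.23% of all genes), 0 had an adjusted p below 0.05, and the median log2 difference was 0.17. The 5 higher ones were Birc3, an inhibitor of apoptosis and NF-kappa-B target (0.70 ± 0.23), Map3k14, the NIK kinase of the non-canonical NF-kappa-B pathway (0.46 ± 0.16), Map3k5, the stress kinase ASK1 (0.29 ± 0.12), Adam17, the protease that sheds TNF and its receptors (0.33 ± 0.14), and Mlkl, the effector of necroptosis (1.04 ± 0.46). The lower one was Sharpin (-0.44, chosen for naming after its value was seen), a subunit of the linear ubiquitin ligase. Of the 5 higher ones, Birc3 and Adam17 did not overlap between the groups, as for 3.13% of all genes and 4.31% of those with at least 0.5 CPM. Birc3 had 1.57 to 2.54 CPM in MRL and 0.747 to 1.38 CPM in MRL-IRAK4-KD. Adam17 had 15.42 to 17.07 CPM in MRL and 8.84 to 14.72 CPM in MRL-IRAK4-KD. The Mlkl value was 0.38 without MRL replicate 4, and the Adam17 value 0.19 without MRL-IRAK4-KD replicate 4.

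Of the 30 TNF response genes, 11 were higher and 1 lower in MRL than in MRL-IRAK4-KD at an unadjusted edgeR p below 0.05 (5.14% and 6.23% of all genes), and the median log2 difference was 0.44 against 0.00 over all genes. Without MRL replicate 4 the higher genes numbered 7, and without MRL-IRAK4-KD replicate 4 they were 11. The list was chosen with earlier results of these data known, so these counts are not an independent check. The named genes of this list with higher estimates were Cxcl10, an interferon-induced chemokine (1.78 ± 0.45), Ccl2, which attracts monocytes (1.48 ± 0.40), Ier3, an early response gene (0.96 ± 0.28), and Junb, a subunit of AP-1 (1.22 ± 0.36). None had an adjusted edgeR p below 0.05 (0.321 to 0.401). With DESeq2 Cxcl10 (0.00908), Ccl2 (0.0232) and Junb (0.0485) had an adjusted p below 0.05 and Ier3 (0.0503) did not, where DESeq2 called 1.34% of the genes it gave an adjusted p. Ccl2 was scarce, at 0.131 to 0.200 CPM in MRL and 0.0451 to 0.0867 CPM in MRL-IRAK4-KD, without overlap. Cxcl10 (at least 0.593 CPM in MRL, at most 0.581 in MRL-IRAK4-KD) and Junb (at least 36.26, at most 35.98) did not overlap either, and Ier3 did. Of all genes, 3.13% lay higher in MRL without overlap.

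Tnip1, which encodes the NF-kappa-B inhibitor ABIN1, was the 1 gene of the 4 lists called by edgeR in MRL against MRL-IRAK4-KD, and it was lower in MRL. It was at 17.9, 18.5, 17.6 and 18.7 CPM in MRL and at 24.7, 31.2, 30.9 and 27.4 CPM in MRL-IRAK4-KD. The log2 difference was -0.65 ± 0.09 (adjusted p = 0.00934 by edgeR and 1.1e-08 by DESeq2). The call was lost in 5 of 14 fits that left out 1 mouse (MRL replicates 2, 3 and 4, MRL-IRAK4-KD replicates 2 and 3), with adjusted edgeR p up to 0.0957. In C57BL/6 it was at 17.2, 20.1 and 19.6 CPM, and in IRAK4-KD at 30.8, 30.4 and 29.4 CPM (0.67 ± 0.11, adjusted p = 0.0184 by edgeR). The value of 29.4 CPM is from the library labelled IRAK4-KD replicate 3, which carried the Fas transcripts of lpr mice. Mice labelled with the kinase-dead allele were high in both comparisons, and no mouse of one kind reached the range of the other. The share of all genes with this pattern was not computed. The call in IRAK4-KD against C57BL/6 was lost without any 1 of the 6 mice compared, with adjusted edgeR p up to 0.160. The interaction for Tnip1 was 0.02 ± 0.14. Mice with and without the allele come from different lines, so the allele and other DNA of those lines cannot be told apart here.

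**Figure D4:**
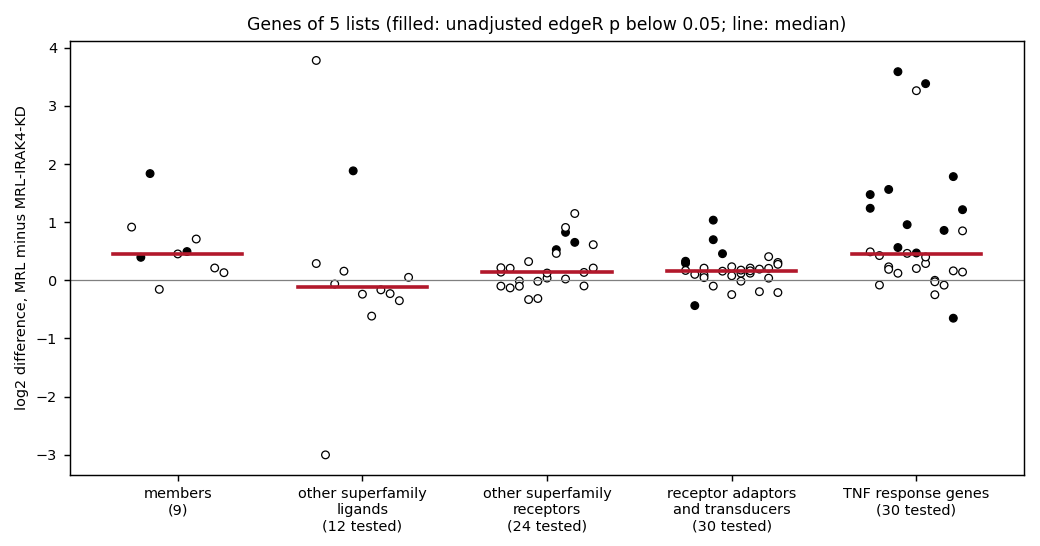
Log2 difference of MRL minus MRL-IRAK4-KD for every tested gene of the 9 members and of the 4 wider lists; filled points have an unadjusted edgeR p below 0.05 and red lines are medians. The medians are 0.45 for the members, -0.11 for the other ligands, 0.14 for the other receptors, 0.17 for the adaptors and transducers and 0.44 for the TNF response genes.

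The other comparisons of groups were read in the same way. In MRL against C57BL/6 the TNF response genes had 6 higher and 0 lower at an unadjusted edgeR p below 0.05, with a median of 0.26, and the adaptors 1 higher and 0 lower, where 5.55% of all genes passed. The other ligands and the other receptors had 0 in either direction. In IRAK4-KD against C57BL/6, where 3.8% passed, the TNF response genes had 2 higher and 1 lower with a median of -0.15. In MRL-IRAK4-KD against IRAK4-KD, where 8.63% passed, they had 0 higher and 1 lower with a median of 0.01. In that last comparison the adaptors had 2 higher and 1 lower, the other receptors 1 higher and 0 lower, and the other ligands 0 in either direction. With DESeq2, 2 TNF response genes had an adjusted p below 0.05 in MRL against C57BL/6, both higher in MRL, where it called 0.742% of genes.

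Of the marker sums of cell types, only the endothelial sum put every MRL mouse above all other mice. The 7 endothelial markers summed to 159.8 to 296.9 CPM in MRL, 104.2 to 136.8 in MRL-IRAK4-KD, 101.6 to 120.0 in C57BL/6 and 72.5 to 83.7 in IRAK4-KD, so that MRL was above all other mice, as for Tnfrsf1b. All 7 had higher estimates in MRL than in MRL-IRAK4-KD, 5 of them at an unadjusted edgeR p below 0.05 and 1 at an adjusted p below 0.05. Of all genes, 5.14% passed as higher at that unadjusted p and 0.0972% were called at that adjusted p. The 10 microglial markers summed to 464.9 to 592.5 CPM in MRL, 431.7 to 564.9 in MRL-IRAK4-KD, 385.1 to 408.5 in C57BL/6 and 357.1 to 407.6 in IRAK4-KD. The sum of 564.9 was from MRL-IRAK4-KD replicate 4, and all other mice outside MRL lay below the MRL range. Of the 10 microglial markers, 2 were higher at an unadjusted edgeR p below 0.05 in MRL against MRL-IRAK4-KD, where 5.14% of all genes passed as higher. In MRL against C57BL/6 there were 6, where 3.16% of all genes passed as higher. The 6 blood markers summed to 54.9 to 241.4 CPM in MRL and 34.5 to 123.8 in MRL-IRAK4-KD. Between these groups 5 of 6 were higher in MRL at an unadjusted edgeR p below 0.05, as were 5.14% of all genes. By the methods, brains were perfused before dissection. Lymphocyte markers were near 0, with a sum of at most 3.01 CPM, and Cd3d and Ms4a1 were among those at 0 in at least 1 library. The part of endothelium, microglia and blood in the values of Tnfrsf1b, Tnfsf10 and Tnfsf13b was not tested.

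**Figure D5:**
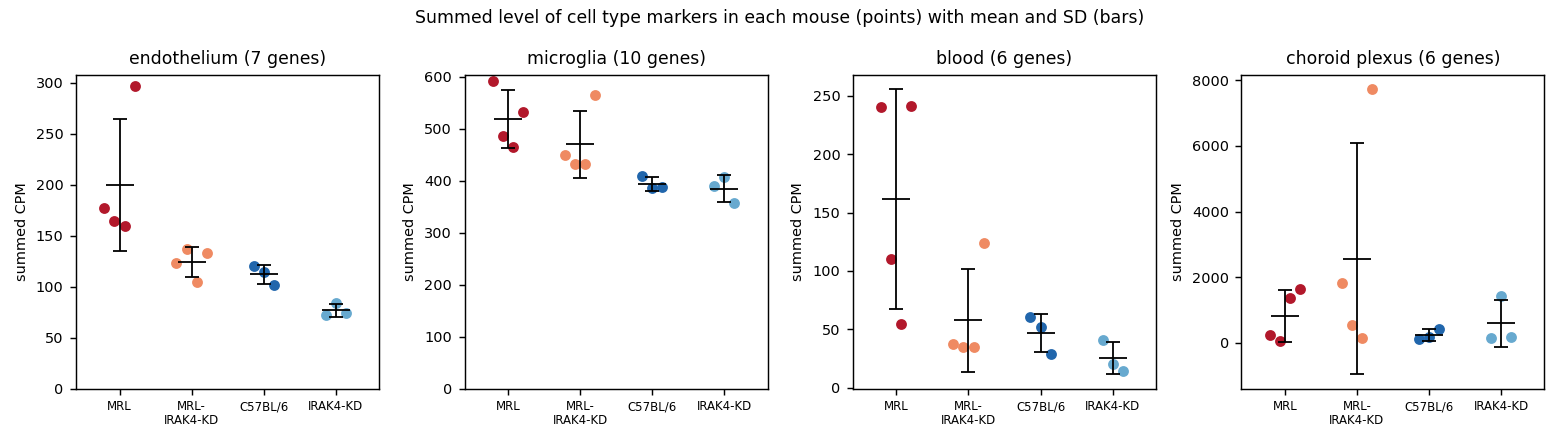
Summed CPM of the markers of endothelium, microglia, blood and choroid plexus in each mouse (points) by group, with mean and SD as bars. The endothelial sum is at least 159.8 CPM in each MRL mouse and at most 136.8 CPM in the others, and the choroid plexus sum of MRL-IRAK4-KD replicate 4 is 7744 CPM.

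Over the 14 mice the genes whose log2 level followed each of the 9 except Tnf most closely were sought. Tnf was left out because its mean, 0.0651 CPM, was below 0.1 CPM. The search covered 16098 genes with a mean of at least 1 CPM. The correlations are given as a description, since the mice share group and library effects. For Tnfrsf1b these were H2-Q7, an MHC class I gene (Pearson r = 0.947), Arap3 (0.940) and the mitochondrial tRNA mt-Tf (0.924). For Tnfsf10 they included the guanylate-binding protein gene Gbp9 (0.983) and Pla2g4a (0.965). Over 12 mice, without replicate 4 of MRL and of MRL-IRAK4-KD, these became 0.914 and 0.907 for Tnfsf10 and 0.930, 0.916 and 0.949 for Tnfrsf1b. Tnfrsf1a was closest to Ctsh (0.965), Clic1 (0.948) and the NF-kappa-B subunit gene Nfkb2 (0.942), and Tnfsf13b to Hvcn1 (0.889), Tec (0.832) and Kyat3 (0.825).

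The closest genes to the others were Lhx2 (0.916), Trim8 (0.882) and Zic2 (0.862) for Tnfsf12, and Cln3 (0.919), Plbd2 (0.917) and Actn4 (0.916) for Tnfrsf12a. For Tnfsf13 they were Notum (0.911), Thbs1 (0.908) and Slc25a24 (0.902). For Tnfrsf11b they were the basement membrane gene Nid1 (0.951), Lrig1 (0.945) and Zfp217 (0.945), and these were down to 0.741, 0.670 and 0.661 over the same 12 mice. The likeness of Tnfrsf11b to its neighbours in this ranking thus rested in part on the libraries left out. Over those 12 mice the values also fell for Tnfsf12 (0.881, 0.832 and 0.815) and Tnfrsf12a (0.799, 0.862 and 0.836). For Tnfsf13 they fell to 0.842, 0.824 and 0.765.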

How the data were processed

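Hippocampal RNA of 14 mice was sequenced, 1 library per mouse. The authors deposited 2 tables of raw counts, 1 of genes and 1 of transcripts, made on mm10 with HISAT2 2.1.0, SAMtools 1.9 and StringTie 2.1.0 (submitters' processing notes). StringTie computes a count from the coverage of a transcript and a read length that is set by the user. Deposited counts came to 1.40 to 2.08 per read, so halved counts were an alternative. A sheet of the sequencing facility gave deposited read counts. The annotation is not given in the sources used here, and identifiers were matched to GENCODE M21. Gene sums of the transcript table differed from the gene table in 0 genes.

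Genes with at least 10 counts over all libraries (38070) entered edgeR 4.0.16 under R 4.3.3 (TMM, robust quasi-likelihood, the 4 groups in 1 model), with Benjamini-Hochberg adjustment over all of them and calls at 0.05, and the script was tested on simulated data. CPM used TMM-scaled totals, and TPM used transcript counts and lengths. Exact 2-sided permutation tests compared log2(CPM + 0.1). Alternatives were DESeq2 1.42.0, limma 3.58.1 (voom with quality weights), other filters, scalings and samples, leaving out each mouse, a replicate block, and 3 chosen after seeing the data (without the 2 libraries that stand apart, halved counts, coding transcripts only).

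The 9 genes and the lists were chosen with earlier results of these data known. From each wider list the text names genes with an adjusted p below 0.05 in any comparison and the 5 with the smallest p between MRL and MRL-IRAK4-KD. For each of the 9 genes at 0.1 CPM or more it names the 3 genes, of those at 1 CPM or more, with the highest Pearson correlation of log2(CPM + 0.1). Fas transcripts were read to check the labels, and Irak4 RNA is given although it cannot check them. Some genes that these rules would name are not reported here.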

Additional observations from a re-analysis of the deposited data

Results flagged for a closer look

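Tnfsf10 in MRL replicate 4 was far from the other MRL mice at 13.2 CPM, against 2.24 to 3.41 CPM, with a gap to the nearest mouse of 0.894 of the group's range. The same mouse had the highest marker sums of endothelium (296.9 CPM), border macrophages (17.42 CPM, next 11.85) and blood (241.4 CPM, next 240.8). Tnfsf12 in MRL-IRAK4-KD replicate 4 was far below its group at 5.17 CPM, against 6.56 to 6.64 CPM, with a gap of 0.945 of the range. That library also had the high choroid plexus markers and the lowest input RNA concentration. Dixon's 95% limit for 4 mice is 0.829, and 18 sets of 4 mice were looked at, of which chance alone would mark about 1 in 20.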

How the results depend on the processing

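No gene of the 9 was called at an adjusted p below 0.05 in any comparison under any alternative, leaving out 1 mouse included, except that DESeq2 called 1 (Tnfrsf1b, MRL against MRL-IRAK4-KD). The cause of that difference between tools was not tested. At an unadjusted p below 0.05, MRL against C57BL/6 gave 2 genes, 0 to 3 when 1 mouse was left out (0 without C57BL/6 replicate 1, and 1, Tnfrsf1b, without MRL replicate 4 or C57BL/6 replicate 2 or 3). MRL against MRL-IRAK4-KD gave 3 genes and 2 to 4 under the alternatives. IRAK4-KD against C57BL/6 gave 1 (Tnfsf10) with only the 2 groups compared. The interaction gave 2 (Tnf and Tnfrsf12a) with limma-voom and 1 (Tnfrsf12a) without both libraries that stand apart.

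Of 1126 refitted fold changes 55 changed sign, of which 8 did so by more than the SE. The log2 difference of Tnfrsf12a in MRL against MRL-IRAK4-KD became 0.465 with limma-voom, 0.417 without MRL-IRAK4-KD replicate 4 and 0.407 without both libraries. In MRL-IRAK4-KD against IRAK4-KD it became -0.0987, -0.0721 and -0.271 in the same order. That of Tnfsf12 in the latter comparison became 0.145 without IRAK4-KD replicate 1, and the interaction of Tnfrsf1a became 0.226 without both libraries. Leaving out 1 mouse at a time moved Tnfrsf12a from -0.338 to 0.417 in the first comparison and from -0.0721 to 0.688 in the second, and Tnfsf12 from -0.169 to 0.145 in the second.

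Replicate numbers did not pair the mice: of 19 pairs of libraries with the same number 4 correlated above 0.1 (range -0.251 to 0.375). With a replicate block MRL against C57BL/6 gave 1 gene at an unadjusted p below 0.05 (Tnfrsf1b), MRL against MRL-IRAK4-KD 2, and no comparison a gene at an adjusted p below 0.05. Depth limits Tnf, which had at most 68 counts in a library.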
